A study of Danio rerio with 6 samples.

Results

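Described here are 10 genes for enzymes and chaperones that modify and fold procollagen in the endoplasmic reticulum, in heads of *fbln1* mutant and WT zebrafish larvae. They were chosen by name, with earlier results of these data known: *p3h1*, *crtap*, *p3h3*, *p4ha1b*, *p4ha2*, *p4hb*, *plod1a*, *plod2*, *plod3* and *serpinh1b*. All 10 names were found among the 32520 listed genes, each once, and all 10 passed the filter on low values that left 20691 genes for testing. RNA-Seq was performed on 3 pools of homozygous *fbln1* mutants (allele ulg075, a short deletion in the coding region made with CRISPR/Cas9) and 3 pools of WT (genotype ABwt), all at 10 dpf (days post fertilization) and in the AB strain background, with no treatment. Crosses of *fbln1*+/- parents gave the larvae, each larva was genotyped from its body, and 21 heads were joined per pool, or about 20 by the series' own design text. The growth notes of all 6 samples name the AB transgenic line ulg071 Tg, which carries *sp7:sp7-GFP*, without saying which larvae carried it. The mutants come from 1 allele, a pool averages over many larvae, and the mutation is present in every cell. In RNA from whole heads, a change in the number of cells of a type and a change in RNA per cell cannot be told apart. The study's RNA extraction methods describe pooled heads, while its sequencing methods and results name whole larvae. The samples are called heads here after the extraction methods.

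Collagen chains are hydroxylated while they are still unfolded. Prolyl 4-hydroxylase gives the 4-hydroxyproline that makes the triple helix stable at body temperature, prolyl 3-hydroxylases modify a few prolines, and lysyl hydroxylases modify lysines that later carry sugars and cross-links. The folded helix is bound by Hsp47, the collagen-specific chaperone coded by *serpinh1* genes, on its way out of the endoplasmic reticulum. In humans, loss of *P3H1*, *CRTAP*, *SERPINH1* or *PLOD2* causes recessive bone fragility.

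Reads counted on genes ranged from 15174207 to 18721515 per pool, and 3 reads stand at 2.60 to 3.20 normalized counts, a floor that covers counting error only. Values are the authors' normalized counts (reads divided by 1 size factor per pool). Differences were tested with limma on log2(normalized count + 1), a scale that understates the change of low genes, and p-values were adjusted over all 20691 tested genes. Calls needed an adjusted p under 0.05 and a log2 fold change beyond 0.5 in either direction. The mutated gene itself, *fbln1*, stood at 77.4, 136 and 70.4 normalized counts over WT pools 1 to 3, and at 93.2, 53.1 and 39.9 in the libraries labelled mutant replicates 1, 2 and 3. The groups overlapped, with the library labelled mutant replicate 1 above 2 of the 3 WT pools (log2 fold change -0.63, limma adjusted p = 0.162). A count over the whole gene does not read the short deletion, so it does not check the genotype, and mutant pools are named below by their labels.

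Each of the 10 genes passed the filter in the WT pools as well. Of them, 8 were called higher in the mutant, beside 15.4% of all tested genes. Because earlier results of these data were known when the 10 genes were chosen, this count is not an independent test. None was called lower, beside 2.68% of all tested genes (555 genes, and 253 without WT pool 1, 258 without mutant pool 2 and 1100.0 without mutant pool 3), and all 10 had a higher mean in the mutant. With the adjusted p alone, 9 of the 10 were higher, beside 18.9% of all tested genes. In 9 of the 10, the lowest mutant pool was above the highest WT pool, beside 24.5% of all tested genes. The median log2 fold change of the 10 genes was 1.08, and that of all tested genes was -0.025. The range ran from 0.18 for *p4ha2* to 1.79 for *p3h1*, or from 1.12-fold to 3.52-fold in the ratio of mean normalized counts. Without the library labelled mutant replicate 1, 8 were again called higher. The shares of 15.4% called higher and 2.68% called lower also stand beside the counts of the lists below.

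**Figure D1:**
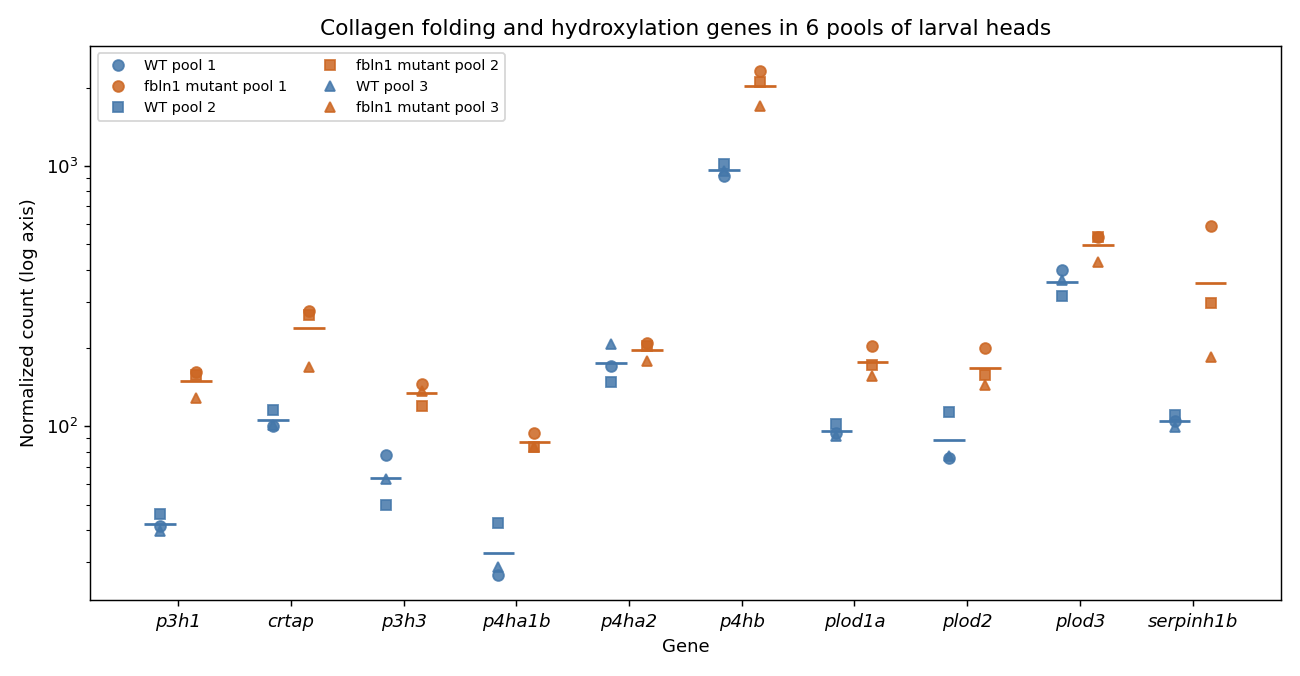
Normalized count (log axis) of each of the 10 genes in the 3 WT pools (blue) and the 3 *fbln1* mutant pools (orange), with a bar at each group mean and 1 marker shape per replicate number. The groups are apart for 9 genes and overlap for *p4ha2*, and the mutant pools of *serpinh1b* spread from 185 to 588.

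The first group is that of the prolyl 3-hydroxylases. *p3h1* (ENSDARG00000071212) codes for the enzyme that in mammals works in a complex with Crtap and cyclophilin B. WT pools 1, 2 and 3 stood at 41.3, 46.2 and 39.5 normalized counts, mutant pools 1, 2 and 3 at 162, 157 and 128. The lowest mutant pool was far above the highest WT pool, and *p3h1* had the largest increase of the 10 genes. From a WT mean of 42.3 ± 3.47 to a mutant mean of 149 ± 18.3 (SD, n = 3 pools each), it rose by 1.79 on the log2 scale (limma adjusted p = 5.41e-05, standard error [SE] 0.18). Among all 20691 tested genes, this increase stood at rank 749.

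*crtap* (ENSDARG00000018010), the helper protein of that complex that is no enzyme itself, stood at 100.1, 116 and 101 normalized counts in the 3 WT pools. The 3 mutant pools stood at 279, 269 and 169. The groups did not overlap, and mutant pool 3 lay well below the other mutant pools. The rise on the log2 scale was 1.14 (limma adjusted p = 0.00147, SE 0.19), and it was 1.37 without mutant pool 3.

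*p3h3* (ENSDARG00000057879) belongs to the same enzyme family and in mouse acts together with lysyl hydroxylase 1. Its level was 77.4, 49.9 and 62.9 normalized counts over WT pools 1 to 3, and 146, 119.8 and 137 over mutant pools 1 to 3. The groups did not overlap, and WT pool 2 was the lowest pool. Its log2 fold change was 1.09 (limma adjusted p = 0.00216, SE 0.19).

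Prolyl 4-hydroxylase is a tetramer of catalytic alpha subunits, coded by *p4ha* genes, and beta subunits, coded by *p4hb*. For the alpha subunit gene *p4ha1b* (ENSDARG00000071082), WT pools 1 to 3 stood at 26.8, 42.4 and 28.8 normalized counts. Mutant pools 1 to 3 stood at 94.3, 83.3 and 83.2. The mutant pools lay close together and all above WT pool 2, the highest WT pool. It rose by 1.41 on the log2 scale (limma adjusted p = 0.00132, SE 0.23). This gene had the fewest reads of the 10, with 26 to 45 reads per WT pool.

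The other alpha subunit gene, *p4ha2* (ENSDARG00000010085), stood at 170.3, 148 and 208 normalized counts over WT pools 1 to 3, and at 209, 203 and 178 over mutant pools 1 to 3. The groups overlapped, with WT pool 3 at the level of the highest mutant pool. The difference of 0.18 on the log2 scale did not pass the test (limma adjusted p = 0.383, SE 0.15), and its 95% interval ran from -0.15 to 0.50.

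*p4hb* (ENSDARG00000105116), the beta subunit, is also protein disulfide isomerase and serves many secreted proteins besides collagen. Its level was 914, 1017 and 958 normalized counts over WT pools 1 to 3, and 2318, 2100.2 and 1704 over mutant pools 1 to 3. Every mutant pool was well above the WT pools, which differed little among themselves. Its rise was 1.07 on the log2 scale, with the smallest SE of the 10 genes, 0.11 (limma adjusted p = 5.4e-05).

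Of the lysyl hydroxylase genes, *plod1a* and *plod2* were called and *plod3* was not. *plod1a* (ENSDARG00000059746), whose mammalian counterpart modifies lysines of the triple helix, stood at 93.9, 102 and 91.8 normalized counts over WT pools 1 to 3. Over mutant pools 1 to 3 it stood at 204, 172 and 156. The groups did not overlap, and the rise was 0.87 on the log2 scale (limma adjusted p = 0.0017, SE 0.15).

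For *plod2* (ENSDARG00000011821), whose mammalian counterpart modifies lysines in the short ends outside the helix, WT pools 1 to 3 stood at 75.4, 114 and 76.8 normalized counts. Mutant pools 1 to 3 stood at 199.8, 157 and 145. WT pool 2 came nearest to the mutant pools but stayed below each of them. This gene rose by 0.92 on the log2 scale (limma adjusted p = 0.00583, SE 0.20).

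*plod3* (ENSDARG00000076317), which in mammals also adds sugars to hydroxylysine, stood at 397, 318 and 365 normalized counts over WT pools 1 to 3. Over mutant pools 1 to 3 it stood at 536, 534 and 427. The groups did not overlap, but mutant pool 3 was close to WT pool 1. The log2 fold change of 0.47 lay just under the limit of 0.5 (limma adjusted p = 0.0134, SE 0.12), so *plod3* was not called. It was called, for example, without WT pool 1, at 0.54, and without mutant pool 3, at 0.58, while without mutant pool 1 its limma adjusted p was 0.0535. Over all alternatives this p ran from 0.00356 to 1, the highest where the change was tested against 0.5.

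The Hsp47 gene *serpinh1b* (ENSDARG00000019949) stood at 105, 110.3 and 99.2 normalized counts over WT pools 1 to 3, and at 588, 298 and 185 over mutant pools 1 to 3. The WT pools were nearly equal, whereas the mutant pools spread widely, with mutant pool 1 far above the others. The coefficient of variation was 5.27% in WT and 58.2% in the mutant, the largest of the 10 genes. On the log2 scale it rose by 1.60 (limma adjusted p = 0.00384, SE 0.31). It was 1.16 without mutant pool 1 and 1.99 without mutant pool 3, and it was called in either case.

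**Figure D2:**
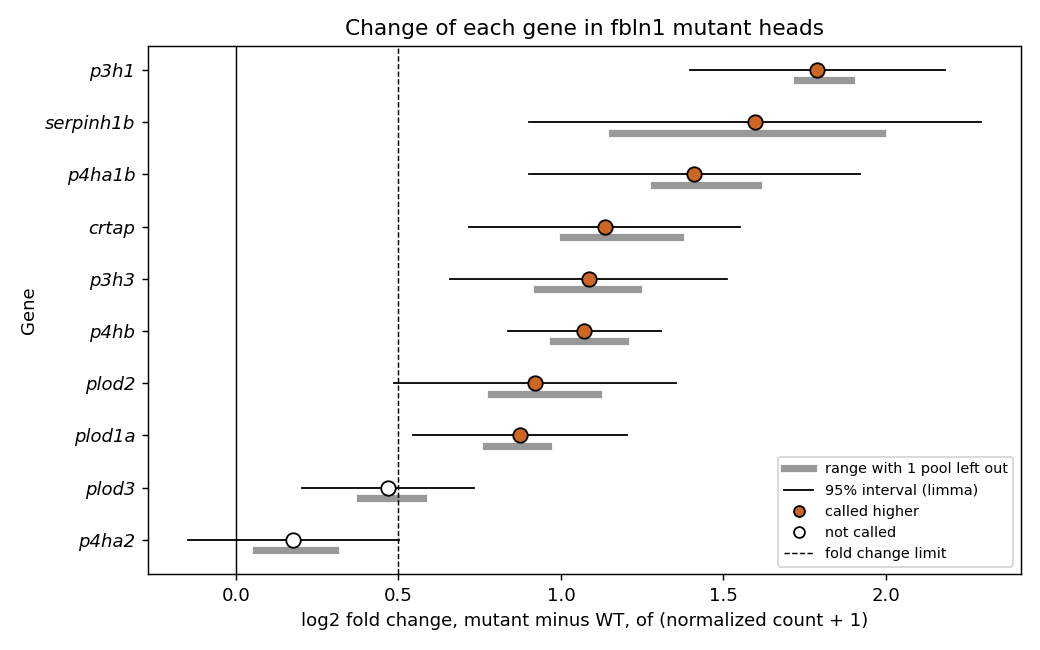
log2 fold change (mutant minus WT) of each of the 10 genes with its 95% interval from limma (black line) and the range of values when 1 pool is left out (grey bar). Filled points are called higher, open points are not, and the dashed line marks the fold change limit of 0.5. *p3h1* is at 1.79, *plod3* at 0.47 and *p4ha2* at 0.18.

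The mutant pools had nearly the same order in all 10 genes. Mutant pool 1 was the highest mutant pool for each of the 10, and mutant pool 3 was the lowest for 9 of them, with *p3h3* as the exception. Some of these ranks lay within counting error. For example, *plod3* stood at 535.9 and 534.4 normalized counts in mutant pools 1 and 2, and *p4ha1b* at 83.34 and 83.18 in mutant pools 2 and 3. Among all 3191 genes called higher, mutant pool 1 was the highest mutant pool for 47.4% and mutant pool 3 the lowest for 69.7%. The summed level of the 10 genes was 2002, 2063 and 2031 normalized counts in WT pools 1, 2 and 3. It was 4735, 4094 and 3313 in mutant pools 1, 2 and 3, and the ratio of the means was 1.99. *p4hb* made up the largest part of this sum, with means of 963 in WT and 2041 in the mutant, followed by *plod3* at 360 and 499.

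Ratios between genes within a pool show where the genes of a complex or family changed unequally, and their difference between the groups does not depend on gene length. In all, 12 ratios were compared by an exact two-sided permutation test. With 3 pools against 3 it cannot give a p below 0.1, nor can it with 1 pool left out. The log2 ratio of *p3h1* to its partner *crtap* was -1.26, -1.31 and -1.34 in WT pools 1, 2 and 3, and -0.78, -0.77 and -0.40 in mutant pools 1, 2 and 3. The groups did not overlap, and the ratio was 0.65 higher in the mutant (exact p = 0.1, adjusted over the 12 ratios 0.171). The ratio of *p3h1* to *p3h3* was 0.70 higher in the mutant (exact p = 0.1). Its groups nearly touched, with the highest WT pool at -0.11 and the lowest mutant pool at -0.09. With 1 pool left out, this difference ran from 0.54 to 0.93 (exact p from 0.1 to 0.2). For *p3h3* to *crtap* the difference was -0.05 and the groups overlapped (exact p = 1).

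Between the alpha subunits, the log2 ratio of *p4ha1b* to *p4ha2* was -2.62, -1.78 and -2.81 in WT pools 1, 2 and 3. It was -1.14, -1.28 and -1.09 in mutant pools 1, 2 and 3, with no overlap. The mean difference was 1.23 (exact permutation p = 0.1, adjusted 0.171). Relative to the beta subunit gene *p4hb*, *p4ha2* was lower in the mutant by -0.90 on the log2 scale, without overlap (exact p = 0.1). The ratio of *p4ha1b* to *p4hb* differed by 0.34 with overlap (exact p = 0.3).

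Among the lysyl hydroxylase genes, *plod1a* to *plod3* differed by 0.40 between the groups, without overlap (exact p = 0.1). The highest WT pool and the lowest mutant pool were both at -1.63. The ratio of *plod2* to *plod3* differed by 0.45 with overlap (exact p = 0.3), by 0.27 without WT pool 1 (exact p = 0.6) and by 0.73 without WT pool 2 (exact p = 0.1). That of *plod1a* to *plod2* differed by -0.05 (exact p = 0.9), and by -0.20 without WT pool 2 (exact p = 0.1). The ratio of *serpinh1b* to *p3h1* was even among the WT pools, at 1.33, 1.24 and 1.31, and spread over the mutant pools 1, 2 and 3, at 1.85, 0.92 and 0.53 (exact p = 0.7). The difference of its means was -0.19, and -0.57 without mutant pool 1 (exact p = 0.1).

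**Figure D3:**
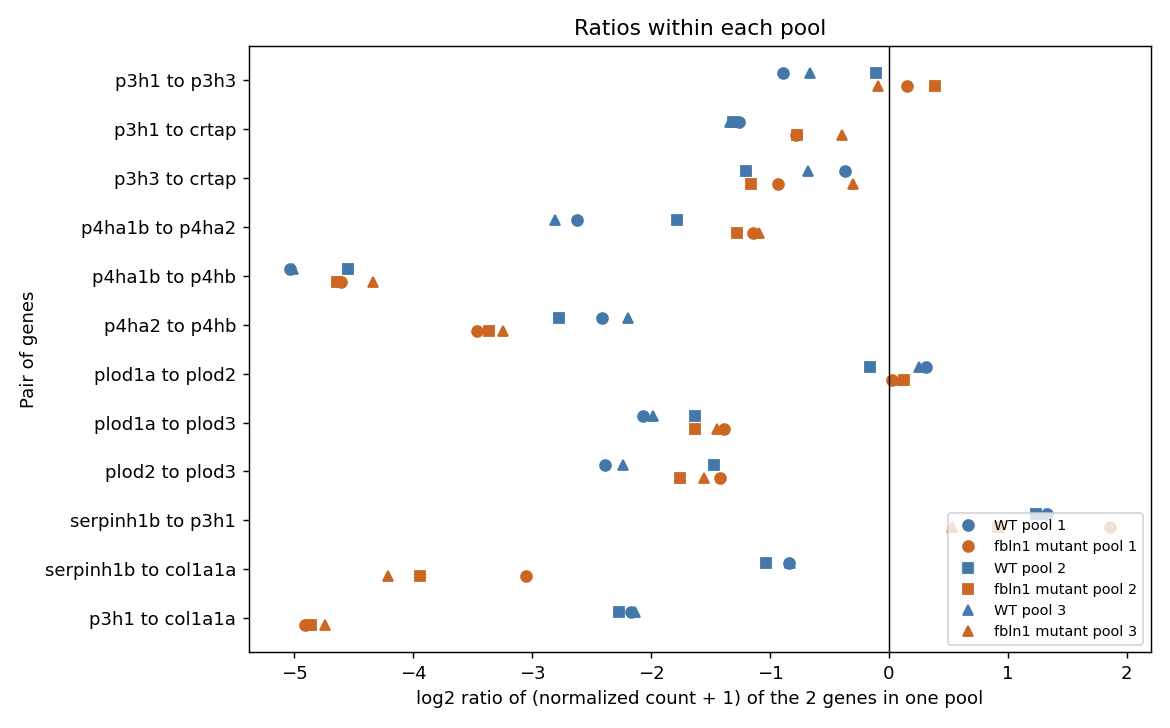
log2 ratio of the normalized counts (plus 1) of each pair of genes within each pool, WT in blue and *fbln1* mutant in orange. The mutant pools stand apart from the WT pools for *p3h1* to *crtap*, *p4ha1b* to *p4ha2* and *p4ha2* to *p4hb*, and most for the ratios to *col1a1a*, at -2.84 and -2.65 between the group means.

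The substrates of these enzymes were compared next. Of 15 tested chains of fibrillar collagens, the long triple-helical collagens of bone, skin and cartilage, 12 were called higher, with a median log2 fold change of 3.11. None was called lower by limma, at an unadjusted p under 0.05 or by edgeR, DESeq2 or limma-voom. The highest value was 4.52 for *col5a2b*, a type V chain that passed the filter only through the mutant pools, with 0 to 8.54 normalized counts in WT, and without it 11 of 14 chains were called. The lowest value was -0.28 for *col24a1*, whose groups overlapped (limma adjusted p = 0.543). For *col1a1a*, a chain of type I collagen, WT pools 1 to 3 stood at 189, 227 and 177 normalized counts and mutant pools 1 to 3 at 4892, 4605 and 3464. Within each pool, the log2 ratio of *serpinh1b* to *col1a1a* was -0.84, -1.04 and -0.83 in WT pools 1, 2 and 3, and -3.05, -3.95 and -4.22 in mutant pools 1, 2 and 3. The groups were far apart, by -2.84 on the log2 scale, and for *p3h1* to *col1a1a* by -2.65 (exact p = 0.1 for each). For every 100 reads of the 15 chains, the 10 genes together had 76.7, 65.8 and 69.1 reads in WT pools 1, 2 and 3, and 18.3, 16.4 and 16.1 in mutant pools 1, 2 and 3. The difference of the means was -53.6 reads, without overlap (exact p = 0.1). Of the summed reads of the 10 genes, *p4hb* held the largest part, and it serves many secreted proteins besides collagen.

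Of 14 other tested genes that modify collagen or assist its folding, 9 were called higher, with a median log2 fold change of 1.35, and none lower (limma; none at an unadjusted p under 0.05 or by edgeR, DESeq2 or limma-voom). Outside this list of names, the table also holds collagen galactosyltransferase genes as *COLGALT1* and *colgalt1*. *COLGALT1* was lower in every mutant pool than in any WT pool, at 722, 662 and 643 normalized counts over WT pools 1 to 3 and 583, 538 and 612 over mutant pools 1 to 3, with a log2 fold change of -0.23 that did not pass the test (limma adjusted p = 0.0663, unadjusted p = 0.025). The groups of *colgalt1* overlapped and differed by 0.11 on the log2 scale (limma adjusted p = 0.789). The entries *p4htm* and *P4HTM* were also fitted outside the list, for their prolyl 4-hydroxylase symbols alone. They are not counted here among the genes that modify collagen. *p4htm* was called lower, at 1973, 1958 and 1915 normalized counts over WT pools 1 to 3 and 1375, 1148 and 1454 over mutant pools 1 to 3. Its log2 fold change was -0.56 (limma adjusted p = 0.00116). *P4HTM* overlapped, at -0.03 (limma adjusted p = 0.868). In the list, the highest was *rcn3*, a calcium-binding protein of the endoplasmic reticulum, at 21.7, 30.2 and 14.9 normalized counts over WT pools 1 to 3 and 298, 242 and 189 over mutant pools 1 to 3. Without overlap, it rose by 3.42 on the log2 scale (limma adjusted p = 9.44e-06, SE 0.27). The lowest was *p4ha1a*, the paralogue of *p4ha1b*, with 92.9, 118 and 111 normalized counts in WT and 91.2, 93.8 and 135 in the mutant. Its groups overlapped, and its log2 fold change was -0.02 (95% interval -0.44 to 0.40, limma adjusted p = 0.938). Among the tested alpha subunit genes, *p4ha1b* was called and *p4ha1a* and *p4ha2* were not, and the difference between *p4ha1b* and *p4ha1a* was not tested.

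The nearest relatives and partners of the 10 genes are named here after their values were seen. *ppib*, the cyclophilin B gene of the *p3h1* and *crtap* complex, stood at 1178, 1192 and 1026 normalized counts over WT pools 1 to 3 and at 2759.5, 2862 and 2414 over mutant pools 1 to 3, with no overlap and a rise of 1.24 on the log2 scale (limma adjusted p = 5.94e-06). *serpinh1a*, the paralogue of *serpinh1b*, stood at 88.8, 81.0 and 88.6 over the WT pools and at 375, 267 and 279 over the mutant pools, a rise of 1.81 on the log2 scale (limma adjusted p = 1.78e-05). Its mutant pools were more even than those of *serpinh1b*, while mutant pool 1 was again the highest. *p3h4*, which codes for a partner of *P3h3* in mouse, changed by 1.20 (limma adjusted p = 0.00537), and *p3h2*, another prolyl 3-hydroxylase, had a log2 fold change of 0.44 with overlapping groups (limma adjusted p = 0.0761).

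General folding genes of the endoplasmic reticulum serve many secreted proteins. Their list here also holds the stress transcription factor genes *xbp1*, *atf4a*, *atf4b* and *ddit3*. Of its 25 tested genes, 17 were called higher, with a median log2 fold change of 0.86. None was called lower by limma, edgeR, DESeq2 or limma-voom. At an unadjusted limma p under 0.05, 3 were lower, namely *atf4a*, *atf4b* and *ddit3*. Of these, *atf4b* was also lower at the adjusted p (limma adjusted p = 0.0435), with a log2 fold change of -0.21. The highest was *creld2*, at 2.32 (limma adjusted p = 0.00153). It stood at 14.5, 19.8 and 7.47 normalized counts over WT pools 1 to 3, so it needed mutant pools to pass the filter. The lowest was *ddit3*, the stress transcription factor CHOP, at -0.26 (limma adjusted p = 0.0551, not called). Of 22 tested genes for export of procollagen from the endoplasmic reticulum, 7 were called higher, with a median of 0.33. None was called lower by any of the same 4 tools. At a limma adjusted p under 0.05, 12 were higher and 3 lower. Those lower were *sec31b* (log2 fold change -0.26, limma adjusted p = 0.0393), *klhl12* and *KLHL12*, each short of the fold change limit. The highest in this list was *creb3l3a*, at 1.03, 2.83 and 0 normalized counts over WT pools 1 to 3, at most 3 reads each, and at 70.7, 53.1 and 45.9 over mutant pools 1 to 3. It passed the filter only through the mutant pools, and without it 6 of 21 export genes were called. In mammals it codes for a transcription factor of liver and gut, and the summed enterocyte genes given below were also higher in these pools, whose part was not tested. The lowest was *klhl12*, a ubiquitin ligase adaptor that enlarges the coats of collagen-carrying vesicles, at -0.41 (limma adjusted p = 0.0410, not called because its change is under 0.5). A further entry of the list, *KLHL12*, was also lower in every mutant pool than in any WT pool. Its log2 fold change was -0.32 (limma adjusted p = 0.0278, not called).

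In mammals, genes of *P4HA* and *PLOD* enzymes are among the targets of the hypoxia response. Of 24 tested genes of a hypoxia list, 3 were called higher and 3 lower (0 higher and 3 lower without mutant pool 2), with a median log2 fold change of -0.19. These counts are equal but their baselines are not, at 15.4% for higher calls and 2.68% for lower calls. The share of lower calls in the list lay above its baseline and that of higher calls did not. Neither difference was tested. The highest was *ca9*, a carbonic anhydrase, at 1.52 (limma adjusted p = 0.0423), from 3.20 to 15.5 normalized counts in the WT pools. Of the WT pools only WT pool 1 reached 10, so *ca9* needed mutant pools to pass the filter. The lowest was *ndrg1b*, at -0.67 (limma adjusted p = 0.0016).

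**Figure D4:**
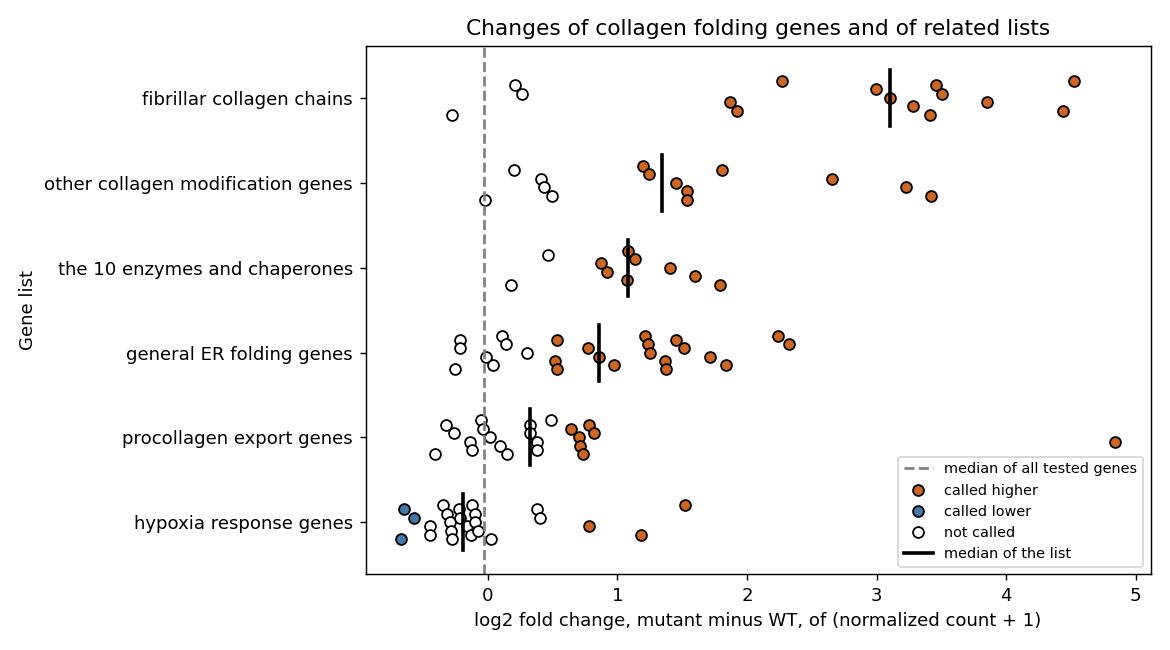
log2 fold change (mutant minus WT) of every tested gene of the 10 enzymes and chaperones and of 5 related lists. Orange points are called higher, blue points lower and open points neither, black bars are list medians, and the dashed line is the median of all tested genes. The list medians run from 3.11 for fibrillar collagen chains over 1.08 for the 10 genes to -0.19 for hypoxia response genes.

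Some markers of several cell types were also higher in the mutant, and their part in these results was not tested. Of 9 tested osteoblast markers 4 were called higher, of 9 chondrocyte markers 6, and of 10 fibroblast and tendon markers 8. The share over all tested genes was 15.4%. The summed levels of these lists ran from 912 to 1007, 1178 to 1390 and 1512 to 1724 normalized counts in WT, and from 1206 to 1327, 2618 to 3231 and 3544 to 4157 in the mutant. The groups did not overlap in any of the 3 sums, and *bglap* was listed at 0 in all 6 pools. The largest part of the osteoblast sum was *alpl*, which did not rise, with means of 558 in WT and 518 in the mutant. Its log2 fold change was -0.11 (limma adjusted p = 0.411, not called). Of the osteoblast markers, *ifitm5* and *panx3* passed the filter only through the mutant pools, and without them 2 of 7 were called. Those 2 also needed mutant pools to pass. *sp7* stood at 23.7, 5.65 and 18.1 normalized counts over WT pools 1 to 3, and *entpd5a* at 8.26, 15.1 and 20.3. *phospho1*, not called, needed them too. The tested markers that reached 10 in all 3 WT pools, *runx2b*, *spp1*, *phex* and *alpl*, were not called. With 1 mutant pool left out, *ifitm5* and *panx3* were no longer tested, and 1 of 7 was called without mutant pool 1 or 2 and 2 of 7 without mutant pool 3. With mutant pool 1, 2 or 3 left out, 2435 of 20242, 2318 of 20234 and 3173 of 20272 tested genes were called higher. Of the called chondrocyte markers, *acanb* and *snorc* also needed mutant pools to pass the filter. They stood at 9.29, 17.0 and 13.9 and at 7.23, 12.3 and 8.54 normalized counts over WT pools 1 to 3. With the filter set at 50 normalized counts, 4 of 7 chondrocyte markers were called higher, beside 2485 of 16584 tested genes. The highest genes of the 3 lists were *panx3* (log2 fold change 3.65), *matn1* (2.67) and *postnb* (4.33), and their lowest were *runx2b* (-0.12), *sox9a* (0.09) and *pdgfrb* (-0.10), none of these last 3 called.

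All 7 epidermis markers were called higher, from 0.62 for *epcam* to 5.72 for *krtt1c19e*. Their sum ran from 21862 to 29898 normalized counts in WT and from 67388 to 90865 in the mutant. Of 9 neuron markers 1 was called higher, *stmn2b* at 0.58, and the lowest was *syt1a* at -0.32. Their sum ran from 53807 to 54561 in WT and from 46664 to 49975 in the mutant, below WT in every pool.

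Genes typical of gut and pancreas, organs outside the head, were measured as well. Of 11 tested enterocyte genes, 10 were called higher (8 of 9 without *lct* and *LCT*, which passed the filter only through the mutant pools). The highest was an *apoa4b.2* gene at 6.68, with 5.16, 49.9 and 13.9 normalized counts over WT pools 1 to 3. It also needed mutant pools to pass the filter. The lowest was *fabp6*, at -1.30 with overlapping groups (limma adjusted p = 0.303). The sum of the enterocyte genes was 1107 to 1328 normalized counts in WT, and 38724, 20639 and 16250.0 in mutant pools 1, 2 and 3. The mutant pools ranked as they did for the summed 10 genes. The sums of fibrillar collagen chains, export genes and chondrocyte markers had the same ranking, and those of the other lists did not. Of 16 tested exocrine pancreas genes, 15 were called higher (8 without WT pool 3, 9 without mutant pool 2), from 0.61 for *ctrb1* to 1.92 for *cel.2*. The groups were apart for 7 of the 16 and overlapped for the others. Over all tested genes, the lowest mutant pool lay above the highest WT pool in 24.5%. The sum of the exocrine pancreas genes ran from 130936 to 238964 in WT and from 240704 to 404565 in the mutant. What share of the change of the 10 genes goes with these lists was not tested.

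**Figure D5:**
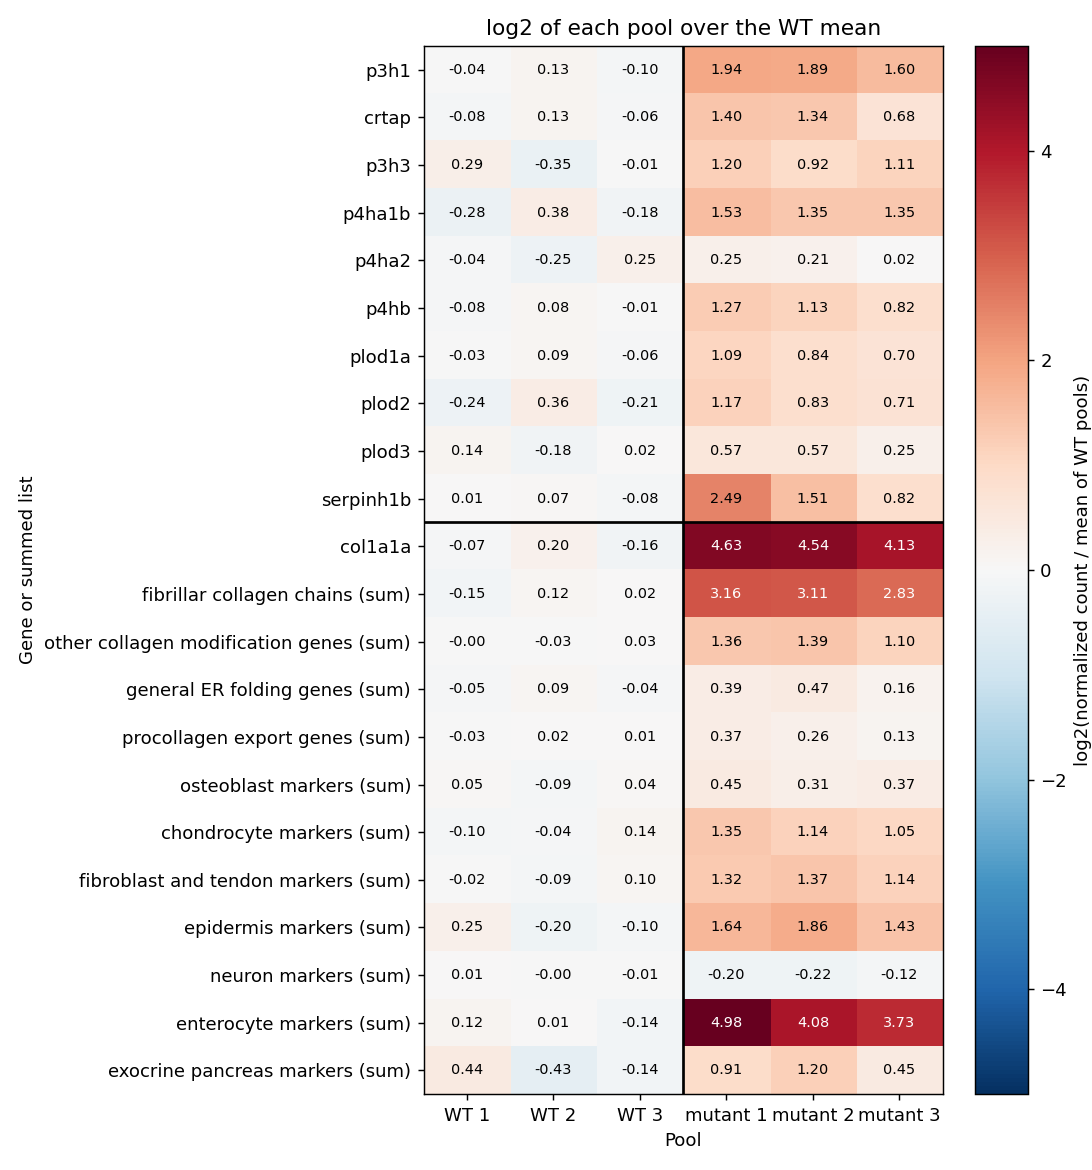
log2 of each pool over the WT mean for the 10 genes, *col1a1a* and the summed related and marker lists, with WT pools on the left and *fbln1* mutant pools on the right. Red is above and blue below the WT mean. *serpinh1b* is at 2.49 in mutant pool 1 and 0.82 in mutant pool 3, and the enterocyte sum at 4.98 and 3.73 in the same pools.

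Other genes had patterns over the 6 pools much like those of the 10, measured as the root mean square difference of their log2 values, each centred on the gene's mean. Nearest to *p3h1* were *eci2* (difference 0.07), *col9a2* (0.08), *slc25a20* (0.09), *col6a1* (0.09) and *col4a6* (0.09), with log2 fold changes from 1.64 to 1.93. Nearest to the mean of the 10 genes were *sdr16c5b* (0.04), *dennd2da* (0.05), *lpcat3* (0.05), *nansa* (0.05) and *bcl10* (0.06), with log2 fold changes from 1.00 to 1.09. These lists are a description over 6 pools.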

How the data were processed

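RNA-Seq was performed on pooled heads with a stranded poly(A) kit. The deposited values are normalized counts, a signal that the authors made by running nf-core rnaseq against GRCz11 and an Ensembl annotation and dividing gene counts by DESeq2 size factors. A second deposited table holds the authors' own comparison (fold changes, p-values, a test statistic and group means) and was not used. Column names carry I, II and III, which were matched to replicates 1, 2 and 3. Each value was a whole multiple of 1 step per pool, and 100% of values came out whole reads within 0.1 read. Replicate pools were not the same library deposited again: their chi-square over genes was 5.80 to 15.2 times its degrees of freedom.

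A gene was tested where 3 or more pools reached 10 normalized counts, in R 4.3.3 with limma 3.58.1 on log2(normalized count + 1), with genotype as the only term, a variance trend (eBayes) and Benjamini-Hochberg adjustment. edgeR 4.0.16, DESeq2 1.42.0 and limma-voom on the recovered reads, other scalings, filters, pseudocounts and thresholds, the replicate number as a block and each pool left out in turn were alternatives. The fits were checked on simulated counts with 200 changed genes. Ratios were compared by exact permutation with scipy 1.17.1 (Python 3.11.15), and figures drawn with matplotlib 3.10.9. The 10 genes and the other lists were chosen with earlier results of these data known. Named besides the 10 genes and *fbln1* are the genes with the highest and the lowest log2 fold change of each list, *col1a1a*, and the 5 genes nearest to *p3h1* and the 5 nearest to the mean of the 10. Others (*ppib*, *serpinh1a*, *p3h4*, *p3h2*, *p4ha3*, *bglap*, *alpl*, *COLGALT1*, *colgalt1*, *p4htm*, *P4HTM*, *xbp1*, *atf4a*, *atf4b*, *sec31b*, *KLHL12*, *ifitm5*, *sp7*, *entpd5a*, *phospho1*, *spp1*, *phex*, *acanb*, *snorc*, *lct* and *LCT*) were named after their values were seen. Collagen galactosyltransferase 1 genes, planned as *colgalt1a* and *colgalt1b*, carry the symbols *COLGALT1* and *colgalt1* in the table and were fitted outside the list. *plod1b*, *tmem38b*, *sar1aa* and *col27a1a* were not analysed here, and neither was a planned search for promoter motifs.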

Additional observations from a re-analysis of the deposited data

How the results depend on the processing

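For the 10 genes, 181 of 190 log2 fold changes under alternatives kept their direction and their side of the threshold, and none changed direction. The number of the 10 called was 8 or 9 under each alternative except when the change was tested against 0.5, where it was 4 (*p3h1*, *p4ha1b*, *p4hb* and *serpinh1b*). That test also left 1256 called genes of all tested and 1 of the export genes, and the adjusted p alone gave 7022 and 15. *plod3* was called under the adjusted p alone, trimmed-mean scaling (log2 fold change 0.50), edgeR (0.51), without WT pool 1 and without mutant pool 3. With 1 pool left out, all called genes numbered 2576 to 4273, and genes called lower 253 to 1100.0. Of the log2 ratios, *p3h3* to *crtap* ranged from -0.30 to 0.14, *plod1a* to *plod2* from -0.20 to 0.04 and *serpinh1b* to *p3h1* from -0.57 to 0.09 with 1 pool left out, and so changed sign. Those with the opposite sign were 0.14, 0.02 and 0.13 for the first (without WT pool 1, mutant pool 1 and mutant pool 2), 0.042 and 0.012 for the second (without WT pools 1 and 3) and 0.094 for the third (without mutant pool 3). Trimmed-mean scaling raised the share of higher calls from 85.2% to 90.4%, and library size scaling gave 79.4%. Over the alternatives, 3 to 15 exocrine pancreas genes (10 by DESeq2, 5 without the variance trend), 1 to 5 osteoblast markers, 0 to 12 hypoxia genes and 0 to 4 neuron markers were called. The causes of these changes were not tested. With the replicate number as a block, 8 of the 10 genes and 3822 genes in all were called. The design text describes batches of mutants with WT siblings but does not tie them to the numbers, so the pools were not treated as pairs. Deviations of same-numbered pools correlated by 0.04, 0.15 and 0.04, and those of differently numbered pools by -0.09 to 0.05. WT pools 2 and 3 correlated best with the mutant pool of their own number. WT pool 1 correlated best with mutant pool 3, at 0.048 against 0.043 for mutant pool 1. Whether the numbers mark batches was not tested. Depth limits *p4ha1b* most, with 26 to 96 reads per pool, and *p4ha3*, below the filter.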
